A study of Mus musculus with 12 samples.

Results

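The nuclear receptors that sense drugs, foreign chemicals, oxysterols, fatty acids and lipophilic hormones were read in the liver of mice exposed to secondhand smoke (SHS). The set comprised 10 genes chosen by name: the drug sensors Nr1i2 (PXR) and Nr1i3 (CAR), the shared partners Rxra and Rxrb, the fatty acid sensors Pparg and Ppard, the oxysterol sensors Nr1h2 (LXR beta) and Nr1h3 (LXR alpha), and the hormone receptors Thrb and Esr1. Every probe set that the array's annotation assigns to 1 of these genes alone was taken, which gave 15 of the 45037 probe sets tested and 9 of the 10 genes. Nr1h2 had no such probe set and was not analysed here. RNA came from adult male C57BL/6 mice, 1 mouse per array on whole-genome Affymetrix mouse arrays, with 4 arrays in each of 3 groups. SHS4m+1m recovery mice breathed SHS by whole-body exposure for 4 months and then clean air for 1 month. SHS4m mice were taken at the end of the 4-month exposure. Control mice were sham-treated with filtered air. The study kept sham mice with and without the recovery month, and the labels do not say which of these the 4 control arrays are, so a 1-month difference in age from either SHS group cannot be told apart from the exposure. By design recovery mice were taken 1 month later than SHS4m mice, so that month of age cannot be told apart from the recovery. All mice ate the same standard diet.

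PXR and CAR bind drugs and other foreign chemicals, pair with a retinoid X receptor (RXR) and switch on genes for cytochromes P450, conjugating enzymes and transporters in hepatocytes. LXRs answer to oxidised cholesterol and PPARs to fatty acids, also as pairs with RXR, and in liver they govern genes of sterol export, fat synthesis and fat burning. The thyroid hormone receptor beta, encoded by Thrb, is the main thyroid hormone receptor of the liver, and Esr1 encodes estrogen receptor alpha.

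The windows just before the transcription starts of Nr1i2 and Rxra are shown because these were the genes of the set whose signal passed the test. All 10 genes had a window in the RefSeq-based table (build GRCm38.p6), 17 windows in all, and the 250 bases before each start were searched on both strands. In the lines below, capitals mark GGGCGG, the GC box, or its reverse complement in the first Rxra window, and AGGTCA, the half-site bound by many nuclear receptors, or its reverse complement in the second. The Nr1i2 window holds neither motif.
Nr1i2, chr16:38294825-38295074, minus strand: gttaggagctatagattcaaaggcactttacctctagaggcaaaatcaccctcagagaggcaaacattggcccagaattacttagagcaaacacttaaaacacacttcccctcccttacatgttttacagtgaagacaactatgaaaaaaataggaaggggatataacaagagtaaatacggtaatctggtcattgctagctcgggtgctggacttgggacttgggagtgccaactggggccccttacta
Rxra, first start, chr2:27676951-27677200, plus strand: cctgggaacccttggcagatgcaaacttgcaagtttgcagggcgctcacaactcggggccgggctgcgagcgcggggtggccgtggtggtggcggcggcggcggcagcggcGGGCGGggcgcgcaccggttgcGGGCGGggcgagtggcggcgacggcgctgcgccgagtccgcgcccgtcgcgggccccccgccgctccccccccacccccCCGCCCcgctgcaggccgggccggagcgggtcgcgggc
Rxra, second start, chr2:27709042-27709291, plus strand: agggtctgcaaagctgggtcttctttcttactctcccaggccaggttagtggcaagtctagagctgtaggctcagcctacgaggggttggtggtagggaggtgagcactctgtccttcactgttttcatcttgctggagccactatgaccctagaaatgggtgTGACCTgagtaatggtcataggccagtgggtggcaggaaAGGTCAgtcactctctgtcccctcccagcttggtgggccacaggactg
The first Rxra window was 81.2% G and C, the second 55.2% and that of Nr1i2 44.0%, against a median of 52.4% over all 32851 windows of the table. AGGTCA was present in 4 of the 17 receptor windows (in Rxra, Thrb and 2 of Pparg) and in 14.0% of all windows. GGGCGG was present in 7 of the 17 and in 32.7% of all windows. AGTTCA, the variant half-site of many PXR and CAR elements, was present in 1 of the 17 (Thrb) and in 11.8% of all. The matches marked in capitals do not overlap, and a match describes letters only.

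The Nr1i2 and Rxra genes were called higher in SHS-exposed mice than in controls, and no receptor of the set was called lower. In SHS4m mice 3 of the 15 probe sets were called higher than in controls (adjusted p under 0.05, limma, across all 45037 probe sets), where 5.4% of all probe sets were called in either direction, 2.52% higher and 2.87% lower. In SHS4m+1m recovery mice the same number, 3 of 15, was called higher than in controls, against 2.07% of all probe sets in either direction, 0.877% higher and 1.19% lower. The called probe sets were in both comparisons the pair that reads Nr1i2 and 1 that reads Rxra, and the 2 comparisons share the 4 control arrays. Bright probe sets were called more often: of those with a mean log2 signal of 8 or more, 14.8% were called for SHS4m and 5.78% for recovery mice, and 10 of the 15 receptor probe sets lay above that level. Between recovery and SHS4m mice 0 of 15 receptor probe sets were called by limma, and 2.54% of all probe sets were called (1.32% higher and 1.22% lower in recovery mice, and 7.01% of those at a mean log2 of 8 or more). In each of the 3 comparisons 5 of the 15 had an unadjusted p under 0.05. The share of all probe sets at that unadjusted level was not counted. The median absolute log2 difference over the 15 probe sets from controls was 0.25 for recovery mice, against 0.17 over all probe sets, and 0.23 for SHS4m mice, against 0.18 over all. None of the 15 reached a 2-fold change with an unadjusted p under 0.05 in any comparison, which 2.47% (SHS4m and control), 1.37% (recovery and control) and 1.7% (recovery and SHS4m) of all probe sets did.

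Nr1i2 encodes PXR, the broad sensor of drugs and bile acids. Signals are given as linear intensities, for which each array had been scaled to a trimmed mean of 500. On probe set 1451807_at the signal was 1274, 1141, 1202 and 1053 in recovery mice, 1406, 1452, 1265 and 1293 in SHS4m mice, and 869, 819, 912 and 981 in controls. All 8 SHS-exposed mice lay above all 4 controls. On the log2 scale the SHS4m mean of 10.40 ± 0.095 (SD, n = 4) exceeded the control mean of 9.80 ± 0.11 (SD, n = 4) by 0.60 (standard error 0.075, 95% interval 0.43 to 0.76, adjusted p = 0.00254 from limma), a 1.51-fold higher signal. Recovery mice averaged 10.19 ± 0.12 (SD, n = 4), 0.38 above controls (95% interval 0.22 to 0.55, adjusted p = 0.0349 from limma) or 1.30-fold. These are whole-liver RNA levels, in which more cells of a type and more RNA per cell cannot be told apart.

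The other Nr1i2 probe set, 1425723_at, gave 684, 735, 599 and 566 in recovery mice, 719, 727, 643 and 725 in SHS4m mice and 470.0, 447, 456 and 498 in controls, again with no overlap between SHS-exposed and control mice. SHS4m mice exceeded controls by 0.59 in log2 (standard error 0.082, 95% interval 0.41 to 0.77, adjusted p = 0.00392 from limma) and recovery mice by 0.46 (95% interval 0.28 to 0.64, adjusted p = 0.025), or 1.37-fold. Recovery mice differed from SHS4m mice by -0.13 (95% interval -0.31 to 0.054, adjusted p = 0.584) on this probe set and by -0.22 (95% interval -0.38 to -0.048, adjusted p = 0.204) on 1451807_at, where 3 of the 4 recovery arrays lay below every SHS4m array. Neither difference was called.

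Rxra encodes RXR alpha, a partner with which PXR, CAR, LXRs, PPARs and the thyroid hormone receptor pair on DNA. Probe set 1454773_at read 5529.7, 5473, 5187 and 5512 in recovery mice, 5788, 6259, 6148 and 5793 in SHS4m mice and 4395, 4938, 4422 and 4693 in controls. The 3 groups did not overlap: SHS4m mice were highest, recovery mice lay between, and controls were lowest. The log2 difference from controls was 0.38 in SHS4m mice (standard error 0.044, 95% interval 0.28 to 0.48, adjusted p = 0.0018 from limma), a 1.30-fold higher signal, and 0.24 in recovery mice (95% interval 0.14 to 0.33, adjusted p = 0.0305), or 1.18-fold. Recovery mice were 0.14 below SHS4m mice in the mean (difference -0.14, 95% interval -0.24 to -0.045, unadjusted p = 0.00888, adjusted p = 0.146), which was not called. Of the 15 probe sets this was the only one without overlap between the SHS groups, against 8.24% of all probe sets.

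Rxra had 2 further probe sets. Signals on 1425762_a_at were 571, 686, 565 and 706 in recovery mice, 747, 606, 644 and 559 in SHS4m mice and 541, 592, 522 and 574 in controls, and the groups overlapped. Its differences from controls were 0.19 in SHS4m mice (95% interval -0.04 to 0.42, adjusted p = 0.401) and 0.18 in recovery mice (95% interval -0.055 to 0.41, adjusted p = 0.541). The 2 probe sets differ in their calls, while the intervals of this one include 0.38 and 0.24. The remaining probe set, 1430497_at, was at or below the floor of 32, to which lower signals were raised, on 11 of 12 arrays and carried no comparison.

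**Figure D1:**
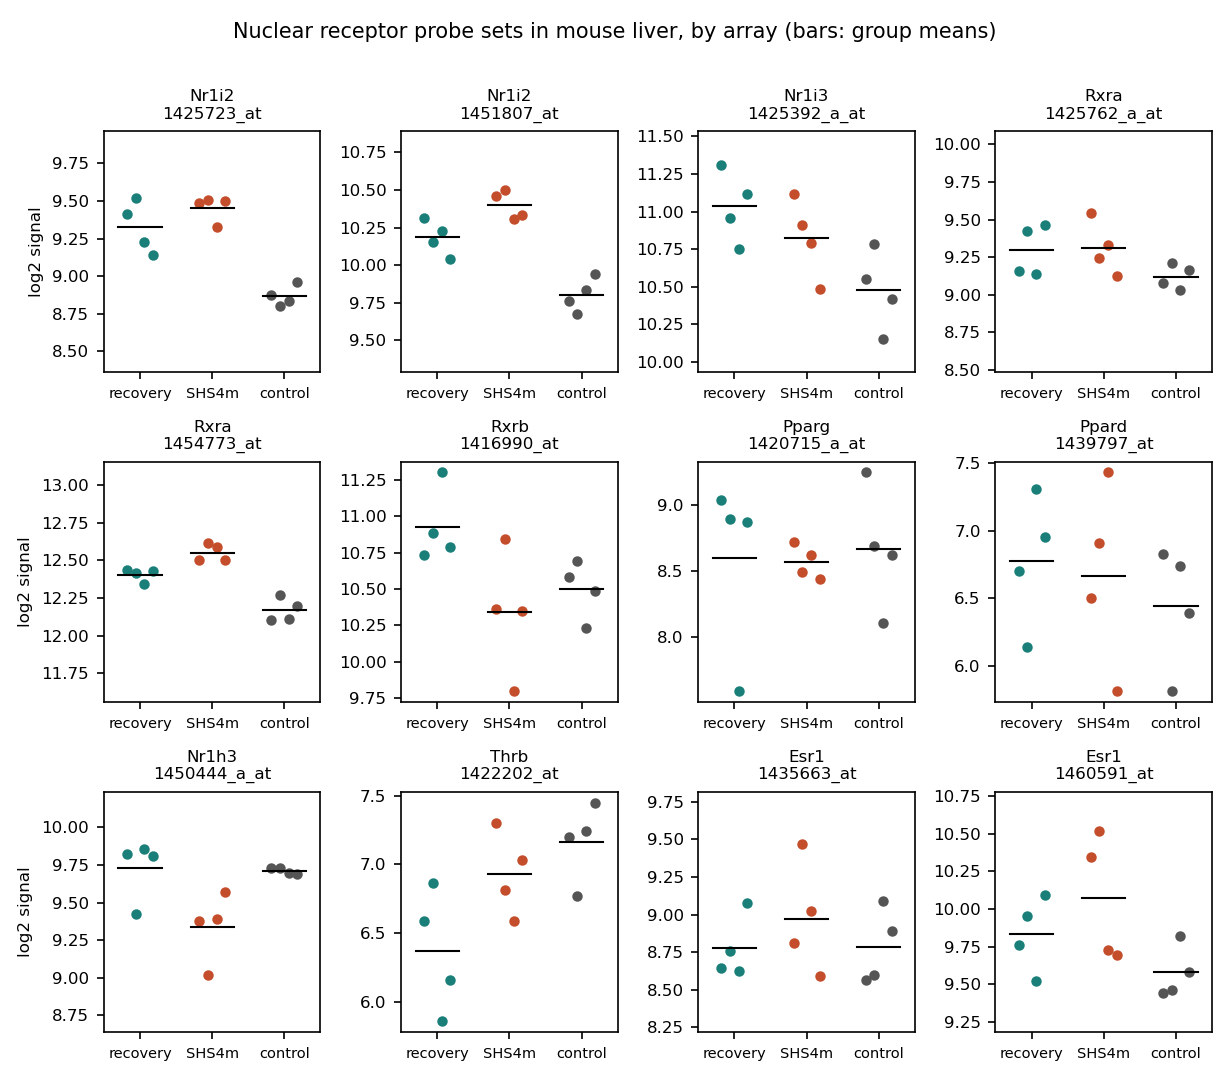
Log2 signal (y axis, scale differs between panels) of the 12 receptor probe sets that were above the floor on every array, in SHS4m+1m recovery, SHS4m and control mice (x axis). Points are single arrays, 4 per group, and horizontal bars are group means. For both Nr1i2 probe sets and for Rxra 1454773_at all 8 SHS-exposed arrays lie above the 4 control arrays.

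Nr1i3 encodes CAR, the sensor that waits in the cytoplasm and moves to the nucleus after phenobarbital-like drugs. Its probe set 1425392_a_at read 2543, 1986, 1723 and 2224 in recovery mice, 2216, 1924, 1773 and 1434 in SHS4m mice and 1499, 1762, 1140.3 and 1368 in controls. In each SHS group 3 of 4 arrays lay above all controls and the groups overlapped. The log2 difference from controls was 0.56 in recovery mice (95% interval 0.17 to 0.95, unadjusted p = 0.00993, adjusted p = 0.166 from limma) and 0.35 in SHS4m mice (95% interval -0.042 to 0.74, adjusted p = 0.352). The log2 standard deviation within a group was 0.24 to 0.26 for Nr1i3 (n = 4 arrays), against 0.095 to 0.12 for Nr1i2 1451807_at, and neither Nr1i3 difference was called.

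Rxrb, the second RXR, read 1705, 1887, 2522 and 1768 on 1416990_at in recovery mice, 1319, 1836, 889.6 and 1304 in SHS4m mice and 1533, 1656, 1200.3 and 1434 in controls. All 4 recovery arrays lay above the controls, with a log2 difference of 0.43 (95% interval -0.046 to 0.90, adjusted p = 0.435). Recovery mice exceeded SHS4m mice by 0.59 in the mean (95% interval 0.11 to 1.06, unadjusted p = 0.0202, adjusted p = 0.225). The SHS4m arrays spread widely (log2 SD 0.43, n = 4), and SHS4m mice differed from controls by -0.16 (95% interval -0.63 to 0.32, adjusted p = 0.802). No difference of Rxrb was called. Without overlap from controls were 4 of the 15 probe sets in recovery mice (Nr1i2 on both, Rxra 1454773_at and Rxrb) and 4 in SHS4m mice (the first 3 of these and Nr1h3), against 7.61% and 11.8% of all probe sets.

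Nr1h3, the oxysterol sensor LXR alpha, read 907, 686, 925 and 899 on 1450444_a_at in recovery mice, 667, 519, 669.7 and 761 in SHS4m mice and 848, 850.1, 828 and 824 in controls. All 4 SHS4m arrays lay below all controls, which were close together (log2 SD 0.023, n = 4). The log2 difference of SHS4m mice from controls was -0.37 (95% interval -0.64 to -0.096, unadjusted p = 0.0134, adjusted p = 0.132 from limma). Recovery mice differed from controls by 0.018 (95% interval -0.26 to 0.29) and from SHS4m mice by 0.39 (95% interval 0.11 to 0.66, unadjusted p = 0.0104, adjusted p = 0.159). None of these passed the test across all probe sets.

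For the fatty acid sensors no difference was called and the intervals were wide. Pparg, which drives fat storage in adipocytes and in fatty livers, read 527, 477, 192 and 469 on 1420715_a_at in recovery mice, 421, 359.8, 393 and 347 in SHS4m mice and 609, 413, 276 and 394 in controls. The groups overlapped, and the log2 differences from controls were -0.068 in recovery mice (95% interval -0.81 to 0.67) and -0.10 in SHS4m mice (95% interval -0.84 to 0.64). Recovery replicate 72 was the low one, and without it the recovery difference from controls turned to 0.27 (adjusted p = 0.742), while that array also had raised 3' to 5' ratios of control transcripts. Ppard, the widely expressed PPAR delta, read 56.2 to 173 over the 12 arrays on 1439797_at, with differences from controls of 0.33 in recovery mice (95% interval -0.51 to 1.18) and 0.22 in SHS4m mice (95% interval -0.62 to 1.07). Its second probe set, 1425703_at, was at or below the floor on all 12 arrays.

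Thrb, the liver's thyroid hormone receptor, read 95.9, 116, 57.9 and 71.3 on 1422202_at in recovery mice, 158, 112, 95.9 and 131 in SHS4m mice and 146, 109, 151 and 175 in controls. In recovery mice 3 of 4 arrays lay below every control, and the log2 difference was -0.80 (95% interval -1.34 to -0.26, unadjusted p = 0.00839, adjusted p = 0.153 from limma), the largest mean difference among the 15 probe sets and not called. Recovery mice differed from SHS4m mice by -0.57 (95% interval -1.11 to -0.025, adjusted p = 0.332), and SHS4m mice from controls by -0.23 (95% interval -0.77 to 0.31, adjusted p = 0.712).

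Esr1, the estrogen receptor of hepatocytes, read 867, 991, 737 and 1091 on 1460591_at in recovery mice, 1301, 1466, 848 and 828 in SHS4m mice and 696, 707, 906 and 767 in controls. In both SHS groups 2 of 4 arrays lay above all controls. The log2 difference from controls was 0.49 in SHS4m mice (95% interval 0.034 to 0.95, unadjusted p = 0.0379, adjusted p = 0.244) and 0.25 in recovery mice (95% interval -0.21 to 0.71, adjusted p = 0.675). On 1435663_at the differences from controls were 0.19 in SHS4m mice and -0.012 in recovery mice (adjusted p = 0.714 and 1), and 1421244_at was at the floor on 8 of 12 arrays. No Esr1 probe set was called in any comparison.

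**Figure D2:**
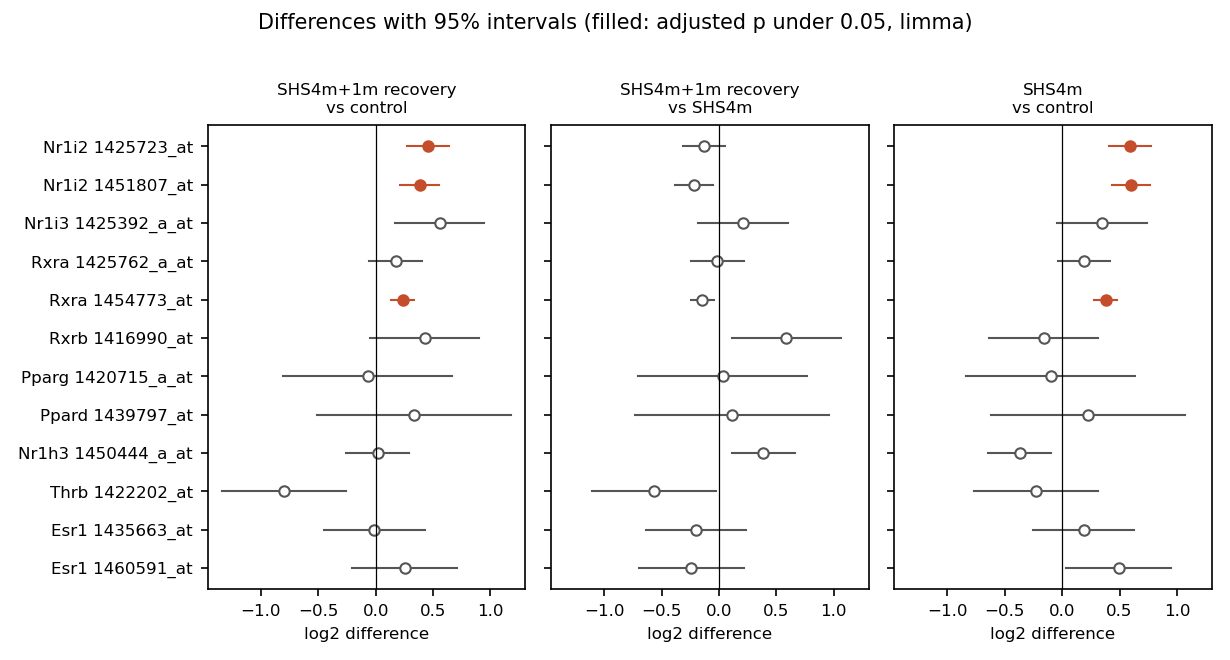
Log2 difference (x axis) of the 12 receptor probe sets above the floor in 3 comparisons, with 95% intervals from limma. Filled points passed the adjusted p. Nr1i2 (both probe sets) and Rxra 1454773_at are filled in both comparisons with controls and no point is filled between recovery and SHS4m mice.

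The SHS4m calls and the recovery calls differed in how far they lay from the threshold. For SHS4m mice all 3 calls held without any 1 of the 8 arrays compared, with an adjusted p of at most 0.0147. The SHS4m call of Rxra 1454773_at was lost with no floor (adjusted p = 0.0987), and none of the 3 met the study's threshold, which asks for a 2-fold change. For recovery mice the count of 3 dropped to 0 without control replicate 1, control replicate 3 or recovery replicate 70, to 1 without control replicate 2 or recovery replicate 71, and to 2 without control replicate 4, recovery replicate 72 or recovery replicate 73. The adjusted p then reached at most 0.0715 for Nr1i2 1425723_at, 0.0888 for Nr1i2 1451807_at and 0.0837 for Rxra 1454773_at. The recovery call of Rxra 1454773_at was also lost with each array centred on its median (adjusted p = 0.128) and with dim probe sets left out (adjusted p = 0.122). With only the 8 recovery and control arrays fitted, or with no floor, the recovery count was 0.

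Genes that CAR and PXR switch on are given beside the receptors. Of 20 measured targets, each read by its brightest probe set, 10 rose and 0 fell in SHS4m mice relative to controls (median log2 difference 0.65), against 7.47% of all 18193 genes called in either direction (3.73% higher, 3.74% lower) and a median of -0.0086 over all genes. The SHS4m count of 10 was 8 or 9 when any 1 array was left out. In recovery mice 2 of 20 rose and 0 fell relative to controls (median 0.17), against 2.52% of all genes called (1.37% higher, 1.14% lower). Relative to SHS4m mice, 4 of 20 fell and 0 rose in recovery mice (median -0.31), against 3.68% of all genes called (2.01% higher, 1.68% lower). The list was drawn up with results of these arrays known and is not independent evidence of its direction.

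Cyp2b10, the phenobarbital-inducible cytochrome P450 that serves as the standard CAR target in mice, read 1866, 1519, 1158 and 1196 on 1425645_s_at in recovery mice, 8714, 8303, 8204 and 9485 in SHS4m mice and 432, 443, 403 and 812 in controls. The 3 groups did not overlap. The signal of SHS4m mice was 17.3 times that of controls (log2 4.11 ± 0.228 standard error, adjusted p = 8.36e-05 from limma), and that of recovery mice 2.81 times (log2 1.49, adjusted p = 0.0145). Recovery mice were lower than SHS4m mice by a log2 difference of -2.62 (adjusted p = 0.00121). Close copies in the Cyp2b family share sequence, so that a probe set may read more than 1 of them. With only the 8 recovery and control arrays fitted, the adjusted p of the recovery call was 0.0776.

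The cytochrome P450 genes Cyp2c55, Cyp3a13 and Cyp2c37 followed. Cyp2c55 read 739, 668, 529 and 649.7 in recovery mice, 1794, 2206, 2391 and 2369.9 in SHS4m mice and 875, 789, 827 and 925 in controls, so that only the SHS4m arrays stood high. It was 2.55-fold above controls in SHS4m mice (log2 1.35, adjusted p = 0.000496), and recovery mice differed from SHS4m mice by -1.76 (adjusted p = 0.000394). Cyp3a13 rose by 1.15 on the log2 scale in SHS4m mice over controls (adjusted p = 0.000603) and was -0.87 apart between recovery and SHS4m mice (adjusted p = 0.0044). For Cyp2c37 these values were 0.61 (adjusted p = 0.00205) and -0.48 (adjusted p = 0.0101), the second of these lost with no floor (adjusted p = 0.112).

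Cyp3a11, the main PXR-inducible cytochrome P450 of mouse liver, did not follow this direction. It read 61046, 70367, 76638 and 49763 in recovery mice, 64184, 54809.5, 55408 and 54551 in SHS4m mice and 69745, 71438, 69746 and 66193 in controls. The log2 difference from controls was -0.28 in SHS4m mice (unadjusted p = 0.0413, adjusted p = 0.256) and -0.12 in recovery mice (adjusted p = 0.732), and between recovery and SHS4m mice 0.16 (adjusted p = 0.677). None was called, although all 4 SHS4m arrays lay below all 4 controls. The mean log2 signal of Cyp3a11 was 15.95, and whether the array could still register a rise at such brightness was not tested.
The other recovery call in the list was the drug efflux pump Abcb1a, at 0.77 above controls on 1419759_at (adjusted p = 0.0385). This probe set was also called in SHS4m mice (0.89 above controls, adjusted p = 0.0109). The second Abcb1a probe set, 1419758_at, was called in neither group (0.75 in recovery mice, adjusted p = 0.44, and 0.69 in SHS4m mice, adjusted p = 0.401). The recovery call of Abcb1a did not hold without control replicate 1, 3 or 4 or any recovery replicate (adjusted p up to 0.0987). Without each of these the count for the list was 1, while without control replicate 2 it was 3.

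**Figure D3:**
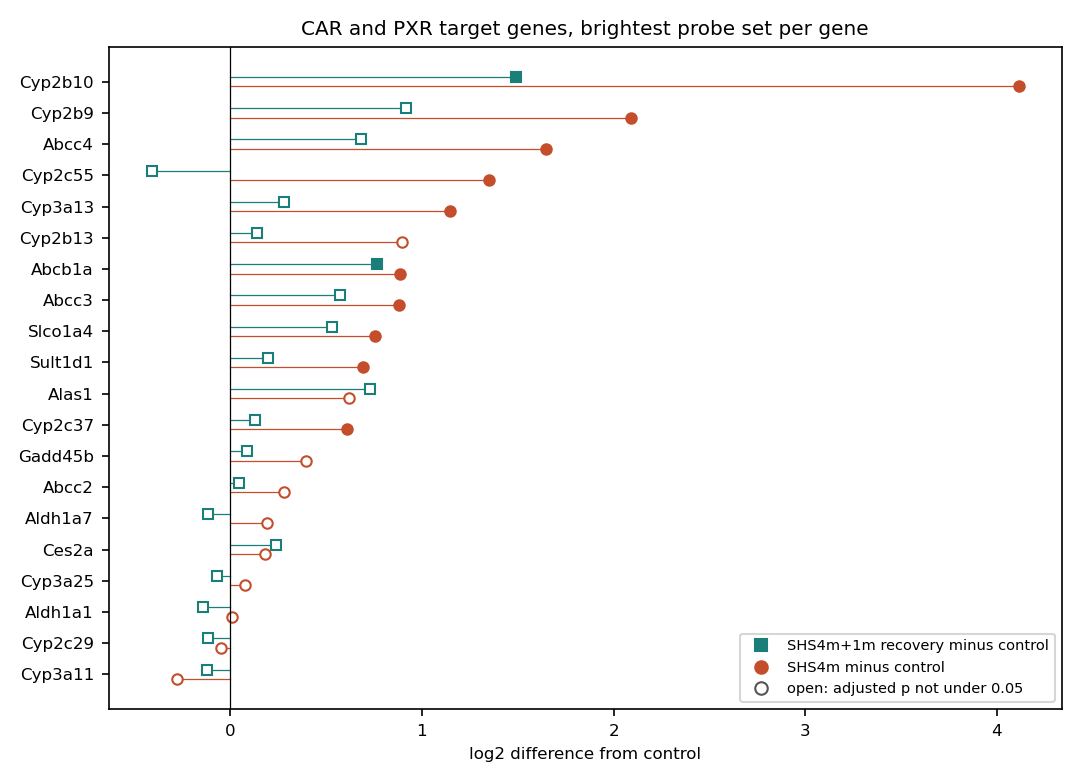
Log2 difference from control (x axis) of the 20 measured CAR and PXR target genes (y axis, ordered by the SHS4m difference), for SHS4m+1m recovery mice (squares) and SHS4m mice (circles), brightest probe set per gene. Filled symbols passed the adjusted p, 10 for SHS4m mice and 2 for recovery mice.

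The proteins that hold CAR and PXR in the cytoplasm or release them were read from 7 measured genes. In SHS4m mice 2 rose and 0 fell relative to controls, where 7.47% of all genes were called. In recovery mice 0 were called by limma relative to controls (3 at an unadjusted p under 0.05), where 2.52% of all genes were called. The 2 that rose were Ppp2r1a and the myosin phosphatase family member Ppp1r16a (log2 0.51, adjusted p = 0.0198). Ppp1r16a was not called on its dimmer probe set 1452724_at (0.39, adjusted p = 0.309). Ppp2r1a, the scaffold subunit of the phosphatase that dephosphorylates CAR, exceeded controls by 0.30 in log2 in SHS4m mice (1438991_x_at, adjusted p = 0.00632). It differed by -0.30 between recovery and SHS4m mice (adjusted p = 0.0115), the 1 call of 7 there, against 3.68% of all genes. That call was lost with each array centred on its median, with no floor and with dim probe sets left out (adjusted p up to 0.267). The SHS4m count was 1 without control replicate 1, 3 or 4 or SHS4m replicate 67 or 68, 3 without SHS4m replicate 69, and 0 with no floor.

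Of 22 other nuclear receptors, 1 rose and 3 fell in SHS4m mice relative to controls (median -0.031), against 7.47% of all genes called, and 2 rose and 1 fell in recovery mice (median 0.057), against 2.52%. Esrra, a driver of mitochondrial genes, was called in both on 1460652_at (0.75 in recovery mice, adjusted p = 0.0477, and 0.66 in SHS4m mice, adjusted p = 0.044). Neither Esrra call held with centring, a floor of 64, no floor or only the 8 arrays compared, nor, with 1 array left out, except without recovery replicate 71 and without SHS4m replicate 66 (adjusted p up to 0.126). Nr5a2 (LRH-1), which drives bile acid and cholesterol genes in hepatocytes, read 1713, 1257, 1366 and 1309.5 on 1420410_at in recovery mice, 1535, 1661, 1595 and 1546 in SHS4m mice and 3127, 3071, 2881 and 3042 in controls. Both SHS groups lay wholly below the controls, with log2 differences of -1.11 in recovery mice (adjusted p = 0.0028 from limma) and -0.94 in SHS4m mice (adjusted p = 0.000602). A second bright probe set, 1456521_at, had differences of -0.074 and -0.22 and was not called. Of the 4 Nr5a2 probe sets, 3 were called lower in each comparison with controls.

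Nr0b2 (SHP), a receptor without a DNA-binding domain that represses others, read 1342, 1533, 1889 and 1942 in recovery mice, 796, 1475, 1447 and 825 in SHS4m mice and 3377, 2233, 2905 and 4395 in controls. Its difference from controls was -1.53 in SHS4m mice (adjusted p = 0.0122 from limma), a fall, and -0.92 in recovery mice (adjusted p = 0.142), which was not called. Recovery mice differed from SHS4m mice by 0.61 in Nr0b2 (adjusted p = 0.364), 0.49 in Nr1h4 (adjusted p = 0.0823) and 0.40 in Ppara (adjusted p = 0.389). Nr1h4 (FXR), the bile acid receptor, differed from controls by 0.64 in recovery mice (adjusted p = 0.0356) and by 0.15 in SHS4m mice (adjusted p = 0.628), and the recovery call was lost without any 1 of the 8 arrays compared (adjusted p up to 0.0918). Ppara, the fatty acid sensor of the fasted liver, differed from controls by 0.63 in recovery mice (adjusted p = 0.145) and by 0.23 in SHS4m mice (adjusted p = 0.617) on its brightest probe set, and on 1457721_at by 0.65 in recovery mice (adjusted p = 0.0262).
Besides Esrra, Nr0b2 and Nr5a2, the orphan receptor Nr2f2 was called in SHS4m mice (-0.47 on 1416159_at, adjusted p = 0.0372), a call that ended without any 1 of the 8 arrays. The Nr2f2 probe sets 1416158_at, 1416160_at and 1436475_at were not called (adjusted p = 0.126 to 0.462). A dim one near the floor, 1431237_at, was called (-0.84, adjusted p = 0.0132). The count of 4 in SHS4m mice was 2 without any 1 array but SHS4m replicate 66, and the recovery count of 3 was 1 without control replicate 1, 3 or 4 or recovery replicate 70, 72 or 73. Between recovery and SHS4m mice 1 of the 22 was called, the estrogen-related receptor Esrrg (-0.76, adjusted p = 0.0379), against 3.68% of all genes, and 0 without SHS4m replicate 66, 67 or 68 or recovery replicate 71 or 72. The dimmer Esrrg probe set 1421747_at was not called (-0.58, adjusted p = 0.677).

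Of 15 coactivators and corepressors, 3 rose and 0 fell in SHS4m mice relative to controls, 0 were called in recovery mice by limma (3 at an unadjusted p under 0.05), and 1 fell in recovery relative to SHS4m mice. Of all genes 7.47% (3.73% higher), 2.52% and 3.68% were called in these comparisons. Ppargc1a (PGC-1 alpha), which joins PPARs, CAR and other receptors to drive gluconeogenesis and fat burning, read 562, 448, 343 and 474 on 1460336_at in recovery mice, 1385, 1618, 1901 and 1017 in SHS4m mice and 519, 544, 409 and 302 in controls. Only SHS4m mice stood apart, with a log2 difference from controls of 1.74 (adjusted p = 0.00422), while recovery mice differed from SHS4m mice by -1.68 (adjusted p = 0.00886) and from controls by 0.057 (adjusted p = 1). All 5 Ppargc1a probe sets were called higher in SHS4m mice than in controls, and all 5 lower in recovery than in SHS4m mice. Lpin1, a phosphatidate phosphatase that also coactivates PPAR alpha, was 5.68-fold higher in SHS4m mice than in controls (adjusted p = 0.0285), a call that held, with 1 array left out, only without control replicate 2 (adjusted p up to 0.0804). In recovery mice Lpin1 was 1.93 above controls in log2 (adjusted p = 0.126) and differed from SHS4m mice by -0.57 (adjusted p = 0.732), neither of which was called. The Ppargc1a relative Ppargc1b was 1.31 above controls in SHS4m mice (adjusted p = 0.0353) and 0.92 above them in recovery mice (adjusted p = 0.186), with -0.39 between recovery and SHS4m mice (adjusted p = 0.677). The SHS4m call of Ppargc1b ended if control replicate 3 or 4 or SHS4m replicate 66, 67 or 68 was left out (adjusted p up to 0.0938), and without each of these the list's count was 1.

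Targets of LXR moved in both directions. Of 15 measured, 2 rose and 2 fell in SHS4m mice relative to controls, 3 rose in recovery mice, and 4 rose and 2 fell in recovery relative to SHS4m mice (medians -0.069, 0.37 and 0.49). Of all genes 7.47%, 2.52% and 3.68% were called in these comparisons. Abcg5, which with Abcg8 pumps sterols into bile, read 3687, 3338, 3865 and 3430.4 in recovery mice, 6220.2, 6315, 4922 and 5144 in SHS4m mice and 2546, 2883, 2367 and 1996 in controls, with no overlap among the groups and a SHS4m difference from controls of 1.21 (adjusted p = 0.00088). Its recovery difference from controls was 0.56 (adjusted p = 0.0497), a call that held, with 1 array left out, only without control replicate 2 (adjusted p up to 0.124). The recovery call of Abcg5 was also lost with quantile normalization, centring, a floor of 64, no floor, only the 8 arrays compared or array weights (adjusted p up to 0.169). Abcg8 rose by 0.52 in SHS4m mice over controls (adjusted p = 0.00973), and the fatty acid desaturase Scd1 (-0.63, adjusted p = 0.0313) and the phospholipid carrier Pltp (-1.17, adjusted p = 0.0468) were called lower. The calls of Scd1 and Pltp each held in 1 of the 8 fits with 1 array left out, Scd1 without SHS4m replicate 69 and Pltp without control replicate 4 (adjusted p up to 0.118). The dimmer Pltp probe set 1417963_at was not called in SHS4m mice relative to controls (-0.84, adjusted p = 0.232). Acaca, which makes malonyl-CoA for fat synthesis, read 1717, 1567, 1834 and 1622 in recovery mice, 1082, 1075, 985 and 1026 in SHS4m mice and 998, 974, 1311 and 1118 in controls, a difference of 0.62 between recovery mice and controls (adjusted p = 0.012) and of 0.69 between recovery and SHS4m mice (adjusted p = 0.00627).
The SHS4m count of 4 was 2 without control replicate 1, 2 or 3 or SHS4m replicate 66, 67 or 68. The recovery count of 3 was 1 to 4 with 1 array left out, the lowest without recovery replicate 71 or 72. The count of 6 between the SHS groups was 2 or 3 without any 1 array. With only the 8 recovery and control arrays fitted or with no floor, the recovery call of Acaca was lost (adjusted p up to 0.0862).

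Among PPAR gamma targets 2 of 11 rose and 1 fell in SHS4m mice relative to controls, 0 were called in recovery mice (4 at an unadjusted p under 0.05), and 1 fell in recovery relative to SHS4m mice, where 7.47%, 2.52% and 3.68% of all genes were called. The last was Fabp4, a fatty acid carrier of adipocytes and macrophages, with 646, 685, 401 and 745 in recovery mice, 2212, 2028, 1556 and 1958 in SHS4m mice and 983, 677, 978 and 1006 in controls (recovery minus SHS4m -1.67, adjusted p = 0.00524). In SHS4m mice relative to controls the lipid droplet protein Plin4 rose (4.91-fold, adjusted p = 0.0101) and the droplet protein Plin2 was called lower (log2 -0.89, adjusted p = 0.0312). The Plin2 call was lost without control replicate 1 or 2 or SHS4m replicate 67, 68 or 69, with no floor and with only the 8 arrays compared (adjusted p up to 0.0831). The SHS4m count of 3 was 2 without control replicate 1 or 2 or SHS4m replicate 66, 67 or 69. The rise of Fabp4 in SHS4m mice over controls was 1.10 (adjusted p = 0.0169), which missed the threshold narrowly without SHS4m replicate 66. Of 12 targets of PPAR alpha and delta, 0 were called in SHS4m mice (4 at an unadjusted p under 0.05, and 1 called without control replicate 2) and 1 rose in recovery mice relative to controls, the peroxisomal thioesterase Acot3 (6.65-fold, adjusted p = 0.026), 0 without control replicate 1 or 4 or any recovery replicate. Relative to SHS4m mice 2 rose in recovery mice, Acot3 (log2 2.42, adjusted p = 0.0356) and its cytosolic relative Acot1 (0.72, adjusted p = 0.0224), 1 without any SHS4m replicate and 0 without any recovery replicate.

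For the next 3 lists, 7.47% of all genes were called between SHS4m mice and controls, 2.52% between recovery mice and controls and 3.68% between recovery and SHS4m mice, and counts of 1 are near these shares. Of 10 thyroid hormone targets 1 fell in SHS4m mice relative to controls, malic enzyme Me1 (-0.79, adjusted p = 0.0354, and -0.60 on 1416632_at, adjusted p = 0.0812, not called). None were called in recovery mice relative to controls (0 by limma, 1 at an unadjusted p under 0.05), and relative to SHS4m mice 1 fell in recovery mice, the gluconeogenic G6pc (-1.75, adjusted p = 0.0288). The SHS4m count was 0 without control replicate 1, 3 or 4 or SHS4m replicate 66 or 67, and the other 0 without any SHS4m replicate or recovery replicate 71 or 72. Of 8 estrogen receptor targets 1 rose and 2 fell in SHS4m mice, with a count of 3 that held without any 1 array, and 0 were called in recovery mice relative to controls (3 at an unadjusted p under 0.05). The estrogen sulfotransferase Sult1e1 was called higher (adjusted p = 0.0138), with 74.4, 120.1, 63.5 and 85.9 in SHS4m mice and 1 of 4 controls above the floor of 32, at 52.8. The size of its difference was set by the floor, at 0.39 with a floor of 64, 1.20 with 32 and 3.31 with none, and the call was lost with a floor of 64, with no floor and with only the 8 arrays compared (adjusted p up to 0.249). The falls were in Xbp1, a factor of the unfolded protein response (-0.75, adjusted p = 0.00323), and Lifr, a cytokine receptor (-0.74, adjusted p = 0.00481). Between the SHS groups 3 were called, 2 higher and 1 lower in recovery mice, and 1 without any SHS4m replicate or recovery replicate 72 or 73. Of 8 retinoid targets 1 fell in SHS4m mice, the transglutaminase Tgm2 (-0.35, adjusted p = 0.0415), and 2 fell in recovery mice, Tgm2 (-0.40, adjusted p = 0.0406) and the retinol-binding protein receptor Stra6l (-0.65, adjusted p = 0.024), each relative to controls, and 0 were called between the SHS groups (4 at an unadjusted p under 0.05). Of 6 Tgm2 probe sets 1 was called, 1437277_x_at, and the next 3 in brightness differed from controls by -0.14 to -0.068 in recovery mice (adjusted p = 0.592 to 0.828) and by -0.30 to -0.25 in SHS4m mice. The SHS4m count was 0 without control replicate 1, 3 or 4 or SHS4m replicate 67, 68 or 69, and the recovery count was 0 without control replicate 3 or 4 or recovery replicate 70, 71 or 73.

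**Figure D4:**
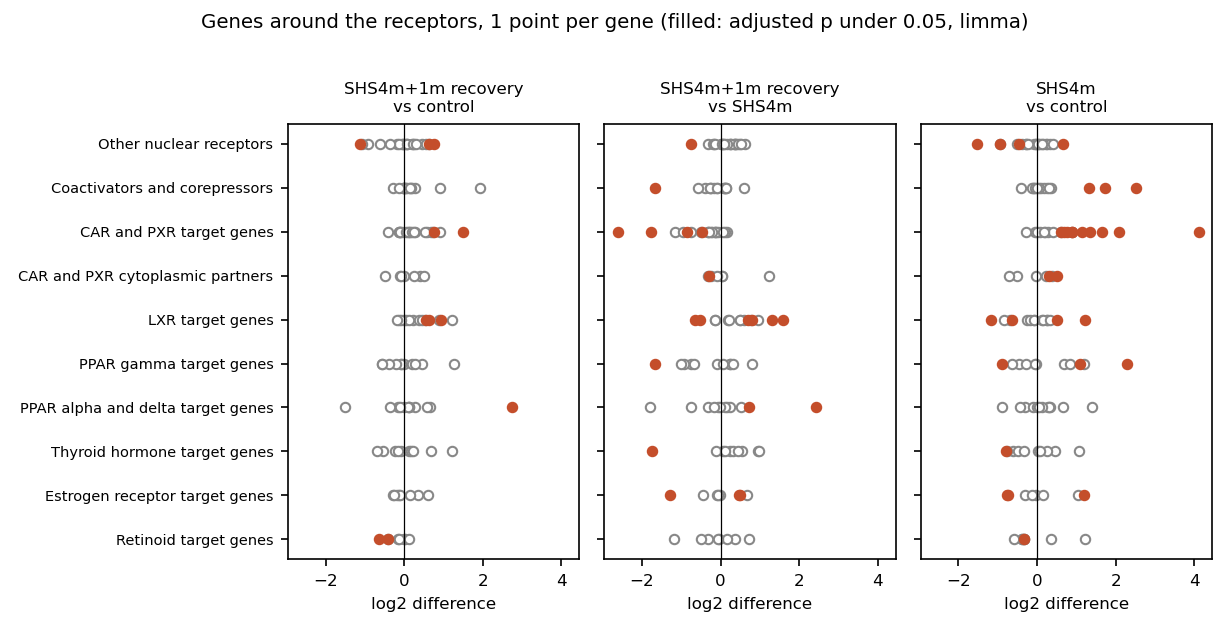
Log2 difference (x axis) of each measured gene in 10 lists (y axis) in 3 comparisons, 1 point per gene, brightest probe set. Filled points passed the adjusted p. The CAR and PXR target genes have 10 filled points to the right of 0 in SHS4m mice relative to controls and 4 to the left of 0 in recovery relative to SHS4m mice.

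Liver identity and RNA quality were read beside these results. The summed signal of 8 hepatocyte markers was 311366 to 476613 in recovery, 350880 to 389337 in SHS4m and 380102 to 433117 in control mice, and 0 of 8 were called in any comparison (at an unadjusted p under 0.05, 3 in SHS4m and 1 in recovery mice relative to controls and 1 between the SHS groups). Of 6 Kupffer cell and macrophage markers, 2 were called between SHS4m mice and controls, against 7.47% of all genes, and 5 had an unadjusted p under 0.05. The median log2 difference of the list was -0.38, against -0.0086 over all genes. Clec4f was lower (-0.51, adjusted p = 0.0173) and Marco higher (log2 1.90 on 1449498_at, adjusted p = 0.0137) in SHS4m mice than in controls. The dimmer Marco probe set, 1458297_s_at, was not called (0.96, adjusted p = 0.319). The 6 summed to 7677 to 10793 in recovery, 7038 to 9073 in SHS4m and 9007 to 10871 in control mice, and their part in the receptor values was not tested. Clec4f was also higher in recovery than in SHS4m mice (0.46, adjusted p = 0.0442), a call lost without SHS4m replicate 67, 68 or 69 or any recovery replicate. No marker of sinusoidal endothelial, stellate, cholangiocyte, adipocyte, lymphocyte or erythroid cells was called in any comparison by limma, with at most 2 of a list at an unadjusted p under 0.05. Of the 3 adipocyte markers measured, 1 was at the floor on all 12 arrays. Degraded RNA gives a high ratio of 3' to 5' signal, and for actin this ratio was 8.82 on recovery replicate 72, against 3.24 to 4.64 elsewhere. For Gapdh the same array had 4.52, against 2.24 to 2.95 elsewhere. Without this array both Nr1i2 differences and the Rxra difference of recovery mice from controls kept their sign, and the call of Nr1i2 1451807_at was lost (adjusted p = 0.0882 from limma).

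The genes whose signal followed the receptors most closely over the 12 arrays were read as a description. Among 15447 probe sets with a mean log2 signal of 7 or more that name 1 gene, the highest correlations with Nr1i2 1451807_at were those of Mcrip2 (Pearson r = 0.96), Rhobtb1 (0.955) and Il6ra (0.955, 12 arrays each). With Rxra 1454773_at they were Baiap2l1 (0.964), Vcam1 (0.963) and Fbxo31 (0.962). The arrays fall into 3 groups that differ in these receptors, so that any gene with the same group order scores high.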

How the data were processed

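Liver RNA, taken as that of 12 mice, was read on 12 arrays, 4 in each of 3 groups named by the labels. The authors summarised each probe set in Affymetrix Expression Console, per the labels, and deposited linear intensity values scaled on each array to a 2% trimmed mean of 500. The summarisation algorithm and software version are not given in the sources used here. The deposited file held 45101 probe sets, of which 64 array controls were left out and 45037 tested. Gene names came from the platform annotation: 34945 probe sets named 1 gene, 932 several and 9160 none, and 1 probe set naming Ppard with another gene was not used.

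Deposited intensities below 32 were raised to 32 and put on a log2 scale. The 3 groups were fitted in 1 model with limma 3.58.1 (R 4.3.3, lmFit and eBayes), two-sided p-values were adjusted over all 45037 probe sets (Benjamini-Hochberg), and an adjusted p under 0.05 was a call. All p-values and 95% intervals come from limma, and the intervals are not adjusted. The study's methods name no other model than Bioconductor tools and a threshold of p under 0.05 with a 2-fold change, which was run as an alternative. Each listed gene was read by its brightest probe set naming it alone. The steps were tested on simulated data.

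The receptors, gene lists and tests were chosen with earlier results of these data known. Named were all receptors, at most 4 called genes of smallest adjusted p per list and comparison, Ppara, Nr1h4, Nr0b2, Ppargc1a, Ppargc1b, Cyp2b10 and Cyp3a11 throughout, and the 3 genes most correlated with each called receptor. Alternatives were quantile normalization, centring on the array median, a floor of 64, no floor, leaving out probe sets with a mean log2 under 6, fitting only the 8 arrays compared, array weights, an intensity trend, the study's threshold and leaving out each array. Promoter windows were RefSeq-based. With 4 arrays a group, their number limits the precision, and the labels do not tie arrays to cages, litters or days.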

Additional observations from a re-analysis of the deposited data

Results flagged for a closer look

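Within groups of 4 arrays, 15 single arrays stood apart (a gap to the nearest array that took up most of the group's range, by Dixon's test) among 162 groups examined, and chance gives about 1 in 20. For the receptors these were a low SHS4m replicate 68 in Nr1i2 1425723_at (gap 0.906 of the range), a low recovery replicate 72 in Rxra 1454773_at (0.839) and in Pparg 1420715_a_at (0.884), and a low recovery replicate 71 in Nr1h3 1450444_a_at (0.905). In probe sets mostly at the floor, the single array above it gave a gap of 1: recovery replicate 71 in Rxra 1430497_at, and recovery replicate 72 and SHS4m replicate 66 in Esr1 1421244_at. With the other arrays of a group at the floor the gap is 1 at any higher signal, so the rate of 1 in 20 does not apply there. The actin and Gapdh ratios of recovery replicate 72 were the highest of the 12 arrays, and their part in the gaps of that array was not tested.

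Among other named genes the arrays apart were control replicate 4, high in Cyp2b10 (0.865), SHS4m replicate 66, high in Cyp3a11 (0.904) and Tgm2 (0.856), control replicate 2, low in Fabp4 (0.93), SHS4m replicate 69, high in Lpin1 (0.885), recovery replicate 73, high in Me1 (0.907), and recovery replicate 71 and control replicate 1, high in Sult1e1 (1 each). For Sult1e1 the other arrays of both groups were at the floor, which sets the gap at 1.

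Between recovery and SHS4m mice, 20 of 54 named probe sets differed by limma's adjusted p, none of them a receptor of the set. Many were named because they passed this test. The drug-metabolism genes were lower in recovery mice, with log2 differences of -2.62 (Cyp2b10), -1.76 (Cyp2c55), -0.87 (Cyp3a13) and -0.48 (Cyp2c37). Also lower in recovery mice were G6pc (-1.75), Ppargc1a (-1.68), Fabp4 (-1.67), Esrrg (-0.76), Abcg5 (-0.65), Smpdl3a (-0.51) and Ppp2r1a (-0.3). Sult1e1 was called lower in recovery mice, where 3 of 4 arrays were below the floor of 32, and its difference was set by that floor: -1.3 with 32, -0.39 with 64 and -2.81 with none, the call being lost in the last 2 settings. Higher in recovery mice were Acot3 (2.42), Pltp (1.3), Rnf145 (0.79), Acot1 (0.72), Acaca (0.69), Lifr (0.49), Xbp1 (0.47) and Clec4f (0.46). Of the 8 fits with 1 array left out, Acaca held in 8, Acot1 in 4, Rnf145 in 2, Clec4f, Lifr and Xbp1 in 1 each and Acot3 in 0. Among the lower calls Abcg5 and Smpdl3a held in 3 each, Esrrg and G6pc in 2 each and the others in 8. Pltp was close to the threshold (adjusted p = 0.0491), and its probe set 1417963_at was not called (adjusted p = 0.114).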

How the results depend on the processing

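No receptor difference that was called changed direction under any alternative run. The 3 SHS4m calls were 0 under the study's threshold (unadjusted p and a 2-fold change) and otherwise 2 or 3. The 3 recovery calls were 0 with no floor, 0 with only the 8 arrays compared, 0 under the study's threshold, 2 with centring on the array median or without dim probe sets, and 0 to 2 when 1 array was left out. Between recovery and SHS4m mice the count was 0 throughout. Centring lifted the percentage of all calls that were higher to 62.6% from 46.7% in SHS4m mice, and to 64.2% from 42.4% in recovery mice, each relative to controls. The cause was not tested. The number of probe sets called, 2430 (SHS4m and control), 931 (recovery and control) and 1142 (recovery and SHS4m), was 971, 106 and 327 with no floor, 258 for recovery and control and 680 for recovery and SHS4m with only the 8 arrays compared, and 575 for recovery and control with centring. With 1 array left out these counts were 1587 to 2041, 438 to 817 and 584 to 834, the lowest without control replicate 3 (both comparisons with controls) and recovery replicate 71. No paired analysis was possible because the titles share no replicate number between groups. Receptor probe sets at or near the floor of 32 carry no difference at this signal.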
